A study of Saccharomyces cerevisiae with 27 samples.

Results

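The mitochondrial ribosomal protein genes of Saccharomyces cerevisiae were described in a parental laboratory strain and in a pair of strains derived from it, each grown on 3 carbon sources. Members were chosen by name: every gene whose NCBI Gene ID carried a symbol starting with MRPL, MRPS, RSM or MRP followed by a number, without MRP8. This gave 66 of the 5995 genes in the files, 38 of the large subunit and 28 of the small subunit. All 66 were among the 5692 genes that passed the filter on low counts. MRPL34 was not analysed here.

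Poly(A) RNA was sequenced from 27 cultures, 3 individual colonies for each of 9 combinations of strain and carbon source. All strains carried his3Δ1 leu2Δ0 met15Δ0 ura3Δ0, the markers of the haploid laboratory strain BY4741. LCY001 carried in addition a CEN-HIS3 construct, and LCY002 a CEN-HIS3 construct with an array of 40 relocated genes. The array genes act in the use of galactose, in glycolysis and in the making of ergosterol. The protocol gives overnight growth without histidine for every strain, after which cells were diluted to an OD600 of 0.1 into glucose, galactose or an ethanol and glycerol mixture and harvested at an OD600 of about 1.0. This medium conflicts with the his3Δ1 genotype given for BY4741, which cannot make histidine; the labels do not resolve the conflict, and it bears on every comparison with BY4741. No member was on the array. The 3 colonies of a derived strain share its construction, so a difference between strains cannot be told apart from anything else acquired in making the strain.

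Mitochondrial ribosomes translate the few messages of the mitochondrial genome, most of which encode core subunits of the respiratory chain and ATP synthase. Nearly all their proteins are encoded in the nucleus, made in the cytosol and imported; many have counterparts in bacterial ribosomes, and others are found only in mitochondria. Glucose represses respiration in this yeast, galactose represses it less, and ethanol and glycerol can be used only by respiration. Puf3 is an RNA-binding protein known to bind the 3′ ends of many messages for mitochondrial translation, at a short element that starts with TGTA.

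Of the 38 large-subunit genes, 24 encode counterparts of bacterial ribosomal proteins and 14 mitochondria-specific proteins; among the 28 small-subunit genes these numbers were 17 and 11. The genes lay on 14 chromosomes, with 12 on chromosome IV and 10 on chromosome XIV, and their coding lengths ran from 213 to 1887 bases with a median of 706.5. The element TGTANATA, with any base at N, was searched on the coding strand in the 200 bases after each stop codon in build R64. It was present in 65 of the 66 members (98.5%) and in 844 of 5980 genes of the genome (14.1%). The member without it was RSM22, which encodes a methyltransferase-like protein assigned to the small subunit. The 30-base windows below, from the R64 reference and 5′ to 3′ on the coding strand, belong to members whose values are described further on, and the capitals mark the element.
MRPL4 (chrXII:1015467-1015496, plus strand): accctctctccTGTAAATAtatatatatat
MRPL16 (chrII:146900-146929, plus strand): ccatgtatacaTGTATATAactattgaaaa
MRPL24 (chrXIII:650856-650885, plus strand): tggttttccccTGTATATAaaaaagcatat
MRPL25 (chrVII:637008-637037, minus strand): atgtctaatcaTGTAAATAattttgtgata
MRPL39 (chrXIII:251207-251236, minus strand): ttcatttatccTGTAAATAagtaatggata
MRPS5 (chrII:722314-722343, plus strand): aatactaTGTACATAcacacgcaccattat
MRPS8 (chrXIII:572761-572790, plus strand): tatacggaccaTGTAAATAataatattata
MRPL33 (chrXIII:842249-842278, plus strand): tgacttatataTGTATATAgtattattttt
MRPL3 (chrXIII:323054-323083, plus strand): gtttgccatttTGTAGATAgagaactcctt

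The members held 79 such elements: 52 genes had 1, 12 had 2, and RSM19, a small-subunit gene, had 3. The first element began at a median of 51 bases after the stop codon, between 8 bases in MRPS5 and 139 bases. In 26 genes the whole of this first element lay within 50 bases of the stop codon. The free base N was A in 36 elements, T in 25, C in 17 and G in 1, the first element of MRPL3 shown above. A longer form, with a C and then any base before the element, was present in 52 members (78.8%) and in 4.23% of all genes. A match describes these letters only; binding was not measured.

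Genes with related roles differed in how often they held the element. It followed all 11 mitoribosomal genes with other names, such as MHR1 and PET123, and all 13 genes of mitochondrial tRNA synthetases. It followed 14 of 17 genes of mitochondrial translation and ribosome assembly factors (82.4%) and 10 of 14 genes of translational activators (71.4%). Among the 33 nuclear genes of the respiratory chain and ATP synthase, the share was 12.1%, and among 138 genes of the cytosolic ribosome it was 4.35%.

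**Figure D1:**
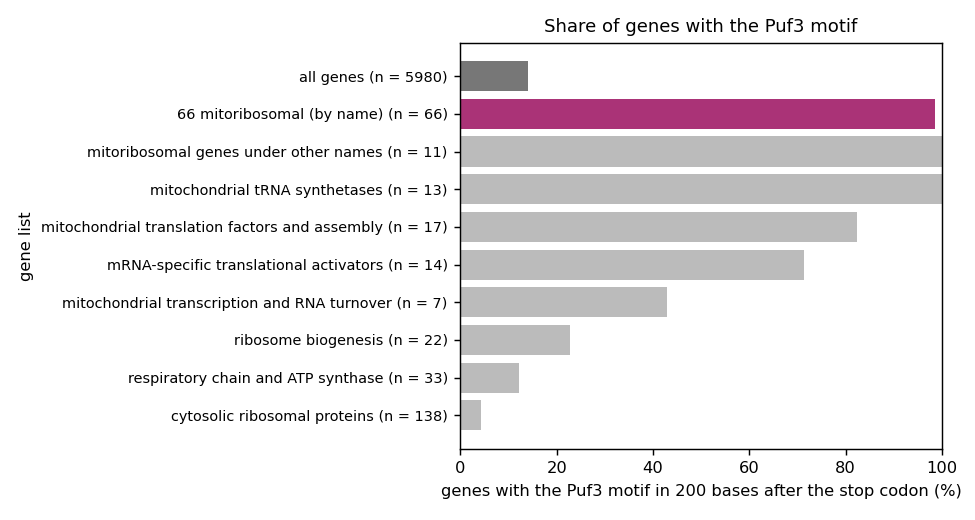
Share of genes, in percent, with TGTANATA on the coding strand in the 200 bases after the stop codon, for each gene list and for all 5980 genes with an annotated coding region. The bar of the 66 members stands at 98.5% and that of all genes at 14.1%.

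Shares of promoter elements lay closer to those of all genes. In the window from 250 bases before to 50 bases after the start codon, on both strands, CCAAT, the core of the site of the Hap complex that activates respiratory genes, was found in 42.4% of members and 43.3% of all genes. A form of the site of the general factor Abf1, TCA and ACG with 6 free bases between them, was found in 27.3% of members and 14.4% of all genes. TTACCCG, the site of the general factor Reb1, was found in 13.6% and 7.11%, and AATTTT in 42.4% and 51.7%. On ethanol and glycerol the median rise of the members in BY4741 was 0.63 (log2) with CCAAT and 0.59 without. It was 0.67 and 0.61 for the Abf1 form, 0.65 and 0.62 for TTACCCG, and 0.66 and 0.60 for AATTTT. For each element the ranges between quartiles overlapped.

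Each library held between 14484847 and 16219263 counts, and the members had between 172 and 3948 counts in a library. LEU2, URA3 and MET17, which all strains lack, had no count in any library. HIS3 stood at 26.0 to 48.7 CPM (counts scaled to a common library size, with sizes adjusted by the TMM method of edgeR) in BY4741, 999 to 1522 in LCY001 and 432 to 666 in LCY002. No pair of libraries in a group was identical, and rank correlations between colonies of a group were 0.994 to 0.999. The p-values below set a difference against the spread between colonies. In bulk RNA a lower share of expressing cells and less RNA per cell cannot be told apart.

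In BY4741 the members together were lowest on glucose, higher on galactose and highest on ethanol and glycerol. Their summed level in the 3 glucose cultures was 3480, 3644 and 3585 CPM. On galactose it was 4971, 5166 and 5054 CPM, and on ethanol and glycerol 5634, 5722 and 5408 CPM. No library of one carbon source overlapped with those of another. Means were 3569 ± 83.2, 5064 ± 98.1 and 5588 ± 162 CPM (SD, n = 3). The same order held in LCY001, with 3910, 3776 and 3625 CPM on glucose, 4704, 4929 and 4796 on galactose and 5261, 5270 and 5227 on ethanol and glycerol. In LCY002 the cultures gave 3592, 3567 and 3635 CPM on glucose, 4411, 4404 and 4380 on galactose and 4954, 5047 and 5142 on ethanol and glycerol. The members took between 0.32% and 0.62% of the counts of a library.

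**Figure D2:**
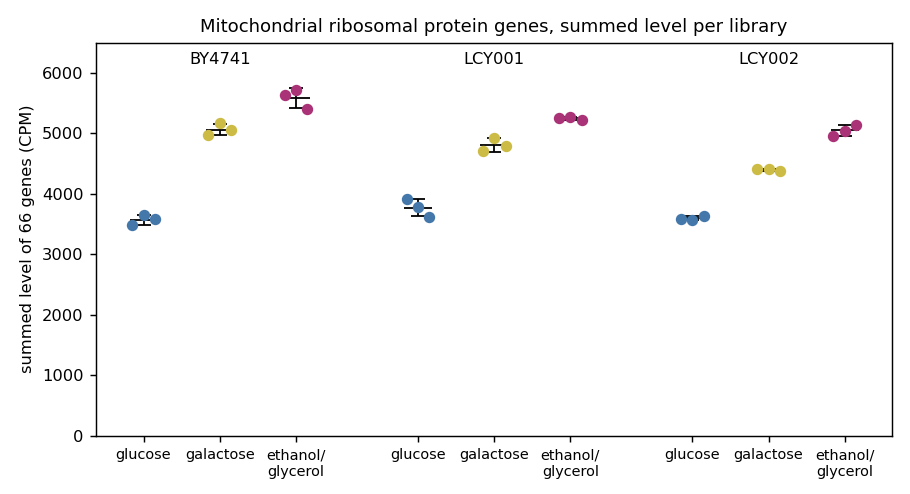
Summed level of the 66 members (CPM, vertical axis) in each library, by strain and carbon source; points are the 3 cultures, with mean and SD. Within each strain the 3 carbon sources do not overlap, and on galactose and on ethanol and glycerol LCY002 lies below BY4741.

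In BY4741 all 66 members rose from glucose to galactose, by a median of 0.50 on the log2 scale, against a median of 0.01 over all genes tested. By edgeR's quasi-likelihood test with Benjamini-Hochberg adjustment at 0.05, 33.9% of all genes were higher and 31.7% lower in this comparison. The median was 0.49 for the large and 0.51 for the small subunit. From glucose to ethanol and glycerol all 66 rose as well, by a median of 0.62, where 43.7% of all genes were higher and 37.7% lower. Here the large subunit had a median of 0.57 and the small subunit 0.66.

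MRPL4 (YLR439W, chrXII:1014491-1015450), the counterpart of a bacterial protein at the exit of the peptide tunnel, had the largest rise on ethanol and glycerol. It stood at 67.6, 72.4 and 76.0 CPM on glucose, 108, 113 and 115 on galactose and 165, 160 and 151 on ethanol and glycerol in BY4741. The 3 carbon sources were fully separated. Its log2 change to ethanol and glycerol was 1.14 ± 0.05 (SE; edgeR quasi-likelihood test, Benjamini-Hochberg adjusted p = 1.19e-17), or 2.2-fold.

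MRPL16 (chrII:146187-146885), the counterpart of a bacterial protein near the tRNA sites of the large subunit, followed the same course. Its level was 38.9, 45.5 and 42.0 CPM on glucose, 65.3, 73.3 and 70.7 on galactose and 91.5, 93.3 and 83.2 on ethanol and glycerol, with no overlap. The changes were 0.73 ± 0.06 and 1.08 ± 0.06 (SE; edgeR, Benjamini-Hochberg adjusted p = 2.34e-10 and 1.08e-14).

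MRPL24, another large-subunit gene with a bacterial counterpart, made most of its change between galactose and the respiratory carbon sources. It stood at 47.0, 48.7 and 48 CPM on glucose, 62.2, 67.4 and 63.5 on galactose and 95.6, 95.6 and 92.1 on ethanol and glycerol. Its changes against glucose were 0.43 ± 0.05 on galactose and 0.98 ± 0.05 on ethanol and glycerol (SE). MRPL39, which encodes the counterpart of a small bacterial large-subunit protein, was also lowest on glucose but highest on galactose. It had 51.7, 52.7 and 49.6 CPM on glucose, 85.0, 90.9 and 82.3 on galactose and 73.4, 72.2 and 64.6 on ethanol and glycerol. All its galactose values lay above those on ethanol and glycerol. The changes against glucose were 0.75 ± 0.05 and 0.45 ± 0.05 (SE).

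Among small-subunit genes, RSM22 (YKL155C, chrXI:159456-161342), the member without the Puf3 element, rose most. It had 47.4, 57.6 and 52.1 CPM on glucose, 94.0, 91.9 and 83.2 on galactose and 116, 111 and 113 on ethanol and glycerol. The groups did not overlap. Its changes were 0.78 ± 0.06 and 1.11 ± 0.06 (SE; edgeR, Benjamini-Hochberg adjusted p = 2.61e-11 and 2.49e-15). MRPS5, the counterpart of a bacterial protein at the entry of the messenger RNA, had 46.6, 48.1 and 47.2 CPM on glucose, 76.0, 80.8 and 83.6 on galactose and 83.3, 79.3 and 75.7 on ethanol and glycerol. Galactose and the respiratory carbon sources overlapped for this gene, and both stood above glucose. Its change on galactose was 0.76 ± 0.06 (SE).

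The members with the smallest rises on ethanol and glycerol were MRPL33, MRPL3 and MRPS8. MRPL3, a mitochondria-specific protein of the large subunit, had 82.7, 81.0 and 80.8 CPM on glucose, 99.0, 107 and 97.4 on galactose and 97.5, 105 and 92.5 on ethanol and glycerol. MRPL33, with a bacterial counterpart in the large subunit, had 26.9, 27.1 and 30.5, then 32.9, 38.8 and 36.5, then 34.7, 33.7 and 32.2 CPM. MRPS8, with a bacterial counterpart in the small subunit, had 38.5, 39.4 and 41.2, then 52.3, 53.1 and 49.4, then 47.7, 47.8 and 48.6 CPM. In each of the 3 genes glucose lay below both other carbon sources without overlap. The changes to ethanol and glycerol were 0.25 ± 0.07, 0.27 ± 0.04 and 0.27 ± 0.06 for MRPL33, MRPL3 and MRPS8 (SE; edgeR, Benjamini-Hochberg adjusted p = 0.00332, 2.65e-06 and 0.00027). The smallest fitted change on galactose belonged to MRPL19, at 0.29 ± 0.08 (SE), which is uncertain because the gene overlaps another annotated gene and the kit's strand handling is not given; the same holds for MRP4 and MRPL51.

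Between galactose and the respiratory carbon sources the members split. In BY4741, 32 were higher and 2 lower on ethanol and glycerol (48.5% and 3.03% of the members), with a median of 0.13. Of all genes 37.2% were higher and 36% lower. In the large subunit 15 of 38 rose, a share close to that of all genes, and 2 fell (median 0.08). In the small subunit 17 of 28 rose and none fell (median 0.16). MRPL24 rose by 0.55 ± 0.05 and MRPL4 by 0.50; MRPS17 and RSM24 of the small subunit rose by 0.47 and 0.42. MRPL39 fell by 0.30 ± 0.05 (SE; edgeR, Benjamini-Hochberg adjusted p = 1.19e-05). The fall of MRPL44, a mitochondria-specific large-subunit gene, of 0.21 ± 0.08 (adjusted p = 0.0247 by the same edgeR test) was no longer called without the second galactose culture (change -0.11), or without the second or the third culture on ethanol and glycerol (-0.20 and -0.17), or on the scale of total counts (-0.13).

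**Figure D3:**
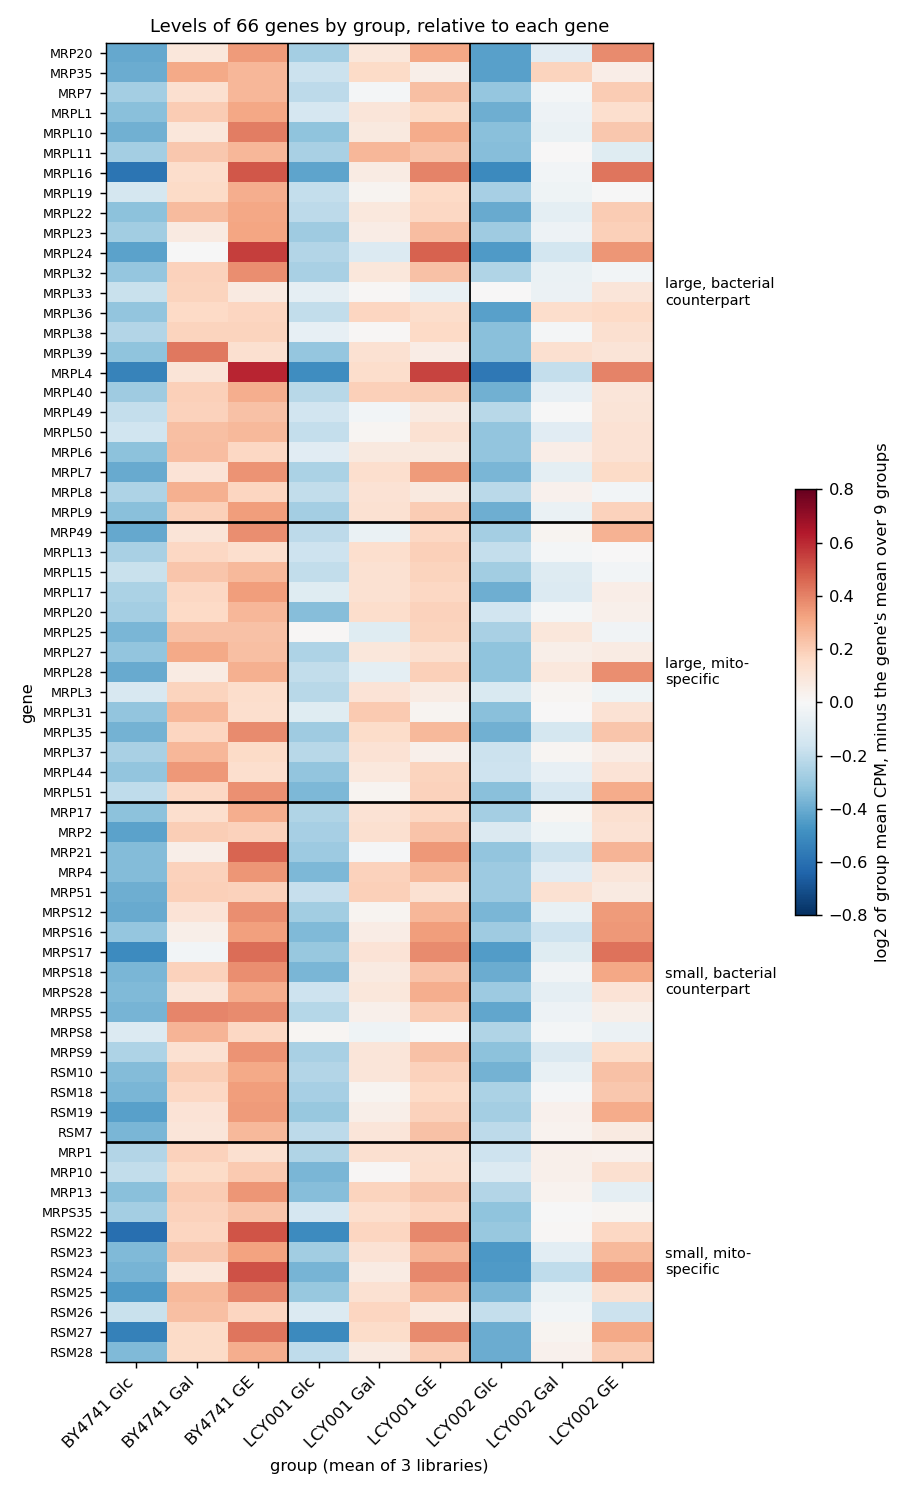
Level of each of the 66 members in the 9 groups, as log2 of the group's mean CPM minus the gene's mean over groups; rows are sorted into large and small subunit, with and without bacterial counterparts. The glucose columns are the lowest for 66 members in BY4741, 64 in LCY001 and 65 in LCY002.

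Against glucose, both derived strains had the same direction as BY4741 with fewer members called. In LCY001, 60 members rose on galactose (median 0.34; 31.1% of all genes were higher and 28.3% lower) and 61 on ethanol and glycerol (median 0.44; 40.2% higher, 37.9% lower). None fell in either comparison. In LCY002, 57 rose on galactose (median 0.29; 33.7% higher, 26.4% lower) and 62 on ethanol and glycerol (median 0.46; 43.2% higher, 40.4% lower), and none fell. From galactose to ethanol and glycerol, 27 rose and none fell in LCY001 (median 0.12, with 35.3% of all genes higher and 36.3% lower). The share of members that rose there, 40.9%, was close to that of all genes. In LCY002, 36 rose (54.5% of the members) and 1 fell (median 0.17, with 36.6% of all genes higher and 40.4% lower). The member that fell in LCY002 was MRP13, by 0.10 ± 0.04 (SE), with overlapping cultures and no call under DESeq2 or on the scale of total counts.

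Of the members, 52 rose on galactose in all 3 strains, 58 rose on ethanol and glycerol in all 3, and 23 rose from galactose to ethanol and glycerol in all 3. As shares of the members these were 78.8%, 87.9% and 34.8%; over all genes tested the shares were 13.7%, 30.1% and 24.7%. MRPL4 had the largest rise on ethanol and glycerol in each strain, with 1.04 in LCY001 and 0.96 in LCY002. Its level in LCY001 was 74.7, 72.1 and 74.9 CPM on glucose, 117, 117 and 111 on galactose and 149, 158 and 149 on ethanol and glycerol. In LCY002 it was 71.9, 71.0 and 67.7, then 93.5, 95.5 and 85.5, then 142, 131 and 137 CPM. In neither strain did the carbon sources overlap for this gene. The highest mean over the 3 carbon sources was on ethanol and glycerol for 48, 53 and 55 members in BY4741, LCY001 and LCY002, and on galactose for 18, 12 and 11.

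MRPL33 and MRPS8 were among the members not called in LCY001. MRPL33 stood there at 30.8, 32.0 and 28.5 CPM on glucose, 30.3, 33.8 and 32.2 on galactose and 34.0, 29.5 and 28.5 on ethanol and glycerol, so that all 3 carbon sources overlapped. MRPS8 stood at 48.4, 42.3 and 39.3, then 39.4, 44.8 and 41.1, then 42.7, 43.1 and 42.2 CPM, again with overlap. In LCY002, MRPL33 had 30.7, 31.9 and 33.3, then 30.8, 31.7 and 30.3, then 32.7, 36.8 and 33.1 CPM. Its change on ethanol and glycerol there was 0.10 ± 0.07, that of MRPL3 0.08 ± 0.04 (SE), and neither passed the test.

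Other gene groups of mitochondrial translation moved with the members in BY4741, where 33.9% of all genes were higher on galactose and 43.7% on ethanol and glycerol. All 11 mitoribosomal genes with other names rose on galactose (median 0.46) and 9 rose on ethanol and glycerol (median 0.69), with EHD3, which is also known as an enzyme of valine breakdown, at 1.43 ± 0.05 (SE). All 13 genes of mitochondrial tRNA synthetases rose on galactose (median 0.50) and 11 on ethanol and glycerol (median 0.50). MSK1, the mitochondrial lysyl-tRNA synthetase, had a change of 1.63 ± 0.05 on galactose and 0.01 on ethanol and glycerol. Of 17 translation and ribosome assembly factors 15 rose on galactose (median 0.46) and 16 on ethanol and glycerol (median 0.77). Among them MEF2 rose by 1.32 ± 0.06 and 2.17 ± 0.06 (SE) and TUF1, the mitochondrial elongation factor Tu, by 0.82 and 1.17. Of 14 activators that act on single mitochondrial messages 12 rose on each carbon source (medians 0.42 and 0.55), among them PET111 by 0.86 and 1.18. CBP1, which protects the cytochrome b message, fell by 0.40 ± 0.06 (SE) on ethanol and glycerol.

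The respiratory chain rose further and the cytosolic ribosome fell. Of all genes in BY4741 33.9% were higher and 31.7% lower on galactose, and 43.7% and 37.7% on ethanol and glycerol. All 33 nuclear genes of the respiratory chain and ATP synthase rose in BY4741, by medians of 1.76 on galactose and 2.48 on ethanol and glycerol. Of 134 tested genes of the cytosolic ribosome 128 fell on galactose (median -0.50) and 131 fell on ethanol and glycerol (median -0.94), while RPL9B rose on the latter; many are near-identical copies whose single values are uncertain. All 22 genes of ribosome biogenesis fell, by medians of -0.53 and -0.88. As a share of counts, the cytosolic ribosome went from 15.6% on glucose to 12.0% on galactose and 9.27% on ethanol and glycerol in BY4741.

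**Figure D4:**
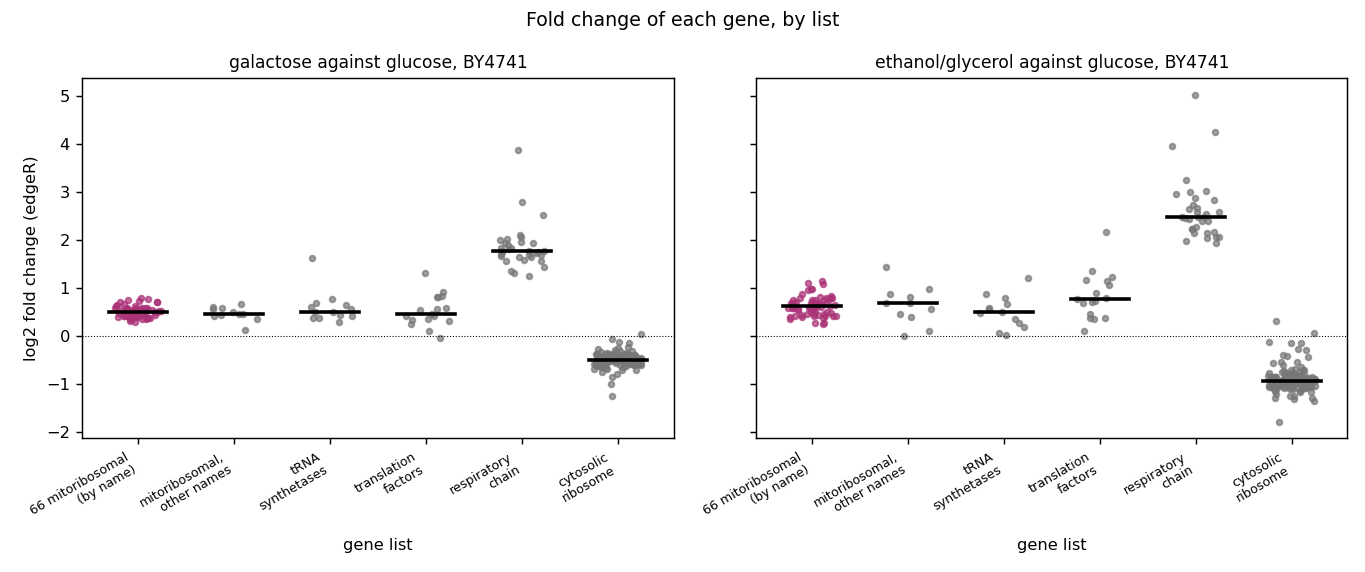
Log2 change of each gene against glucose in BY4741, by gene list, for galactose and for ethanol and glycerol; each point is a gene and the line is the list's median. The members lie above 0 throughout, with medians of 0.50 and 0.62, between the respiratory chain (1.76 and 2.48) and the cytosolic ribosome (-0.50 and -0.94).

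The level of PUF3 itself rose in BY4741, from 54.3 ± 3.58 CPM on glucose to 92.2 ± 1.88 on galactose and 146 ± 9.52 on ethanol and glycerol (SD, n = 3). Its changes were 0.76 ± 0.06 and 1.42 ± 0.06 (SE; edgeR, Benjamini-Hochberg adjusted p = 1.71e-11 and 4.16e-18). HAP4, the regulated subunit of the Hap complex, rose by 0.75 ± 0.14 and 0.87 ± 0.14 (SE). The 767 other tested genes that held the Puf3 element had medians of 0.11 on galactose and 0.19 on ethanol and glycerol, with 46.9% and 54% of them higher. Genes without it had medians of -0.01 and 0.01, with 31% and 41.2% higher. The part of Puf3 in these changes was not tested.

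On glucose, the summed levels of LCY001 (3625 to 3910 CPM) and BY4741 (3480 to 3644 CPM) overlapped. Of the members 19 were higher and 1 lower in LCY001 (median 0.09), where 27.6% of all genes were higher and 27.8% lower by edgeR's quasi-likelihood test with Benjamini-Hochberg adjustment. The share of members called higher, 28.8%, was close to that of all genes, while the share called lower was 1.52%. With DESeq2's size factors in edgeR the split was 14 higher and 3 lower, and with DESeq2 it was 11 and 2. The lower member was MRPL51, at -0.16 ± 0.06 (SE), which overlaps another annotated gene and is uncertain. MRPL25, a mitochondria-specific large-subunit gene, had 22.4, 23.6 and 24.4 CPM in BY4741 and 31.8, 30.4 and 29.1 in LCY001. The strains did not overlap, and the difference was 0.37 ± 0.09 (SE; edgeR, Benjamini-Hochberg adjusted p = 0.000645). MRPL6, with a bacterial counterpart in the large subunit, was higher by 0.23 ± 0.05, and MRP51 of the small subunit by 0.21 ± 0.05. Without the first BY4741 culture, or without the first LCY001 culture, 10 members were called.

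On galactose the summed level was lower in LCY001 than in BY4741 in every culture. In LCY001 1 member was higher and 15 were lower than in BY4741 (median -0.08; 20.7% of all genes higher, 18.2% lower). The share called lower, 22.7%, was close to that of all genes. On the scale of total counts 1 was higher and 6 were lower, and with only the compared libraries in the fit 0 were higher and 9 lower. MRPS5 had 64.6, 59.8 and 64.4 CPM in LCY001, below the 76.0 to 83.6 CPM of BY4741 in every culture. Its difference was -0.35 ± 0.06 (SE; edgeR, Benjamini-Hochberg adjusted p = 2.58e-05). MRPL25 had 26.9, 32.2 and 25.8 CPM in LCY001 and 35.1, 34.0 and 37.4 in BY4741, a difference of -0.33 ± 0.08 (SE) without overlap. MRPS8 and MRPL39 were lower by 0.31 and 0.30 (log2). The higher member was MRPS17 of the small subunit, at 0.13 ± 0.05 (SE), a call lost without the second or the third culture of either strain. Without the second BY4741 culture, or without the first LCY001 culture, 9 members were called.

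On ethanol and glycerol 9 members were lower in LCY001 and none was higher (median -0.10; 6.59% of all genes higher, 4.92% lower). At an unadjusted p under 0.05 edgeR gave 0 higher and 20 lower, and DESeq2 called 0 higher and 7 lower after adjustment. This count was unsteady. It was 1 without the first or the second BY4741 culture and 14 without the third. It was 2, 4 and 5 without the first, the second and the third LCY001 culture, and 0 when only these 6 libraries entered the fit.

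Between LCY002 and LCY001 the members' medians were -0.08 on glucose, -0.12 on galactose and -0.04 on ethanol and glycerol. On glucose 5 members were higher and 21 lower in LCY002, 7.58% and 31.8% of the members, where 28.5% of all genes were higher and 25.3% lower; on the scale of total counts 0 were higher and 40 lower. MRPL17, a mitochondria-specific large-subunit gene, had 71.3, 63.8 and 65.3 CPM in LCY001 and 53.9, 53.1 and 56.8 in LCY002. The strains did not overlap, and the difference was -0.29 ± 0.06 (SE; edgeR, Benjamini-Hochberg adjusted p = 7.9e-05). MRPL25, MRPL38 and MRPS8 were lower by 0.27, 0.27 and 0.26. RSM22 was higher by 0.20 and MRP10, a small-subunit gene, by 0.26, and neither was called on the scale of total counts (0.10 and 0.15). Without the first LCY001 culture 15 members were called.

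On galactose 1 member was higher in LCY002 than in LCY001 and 28 were lower (20.2% of all genes higher, 18.1% lower). On the scale of total counts 0 were higher and 55 lower. MRPL4, whose cultures are given above, was lower without overlap, by 0.33 ± 0.05 (SE; edgeR, Benjamini-Hochberg adjusted p = 4.47e-06). MRPL35, a mitochondria-specific large-subunit gene, was lower by 0.28 and RSM24 of the small subunit by 0.27. The higher member was MRPL28, a mitochondria-specific large-subunit gene, at 0.16 ± 0.06 (SE) with overlapping cultures, and it was not called under DESeq2, with a replicate block or on the scale of total counts (0.03). On ethanol and glycerol 1 member was higher and 20 were lower (29.4% of all genes higher, 30.4% lower). The share of members called lower, 30.3%, was that of all genes to within 1 percentage point, and the share called higher was 1.52%. MRPL11, the counterpart of a bacterial protein at the base of the large subunit's stalk, had 60.1, 59.2 and 60.7 CPM in LCY001 and 44.8, 49.5 and 50 in LCY002. That difference, without overlap, was -0.32 ± 0.05 (SE; edgeR, Benjamini-Hochberg adjusted p = 6.25e-06). MRP13, a mitochondria-specific small-subunit gene, had 107, 108 and 116 CPM in LCY001 and 91.2, 93.5 and 85.6 in LCY002, a difference of -0.29 ± 0.04 (SE). MRPL28 was again the higher member, at 0.18 ± 0.06 (SE), and was not called on the scale of total counts (0.13). Without the second LCY002 culture 13 members were called on ethanol and glycerol.

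Set against BY4741, LCY002 had about the same summed level on glucose and lower ones on the other carbon sources. On glucose 1 member was higher and none lower (median 0.00; 17.7% of all genes higher, 20.7% lower); it was RSM22, at 65.1, 62.7 and 66.1 CPM in LCY002 and 47.4, 57.6 and 52.1 in BY4741, a difference of 0.30 ± 0.06 (SE; edgeR, Benjamini-Hochberg adjusted p = 0.000424). At an unadjusted p under 0.05 edgeR gave 5 higher and 4 lower, and DESeq2 called 1 and 1 after adjustment. With DESeq2's size factors in edgeR the split was 1 and 2, with total counts 1 and 7. Leaving out any of the 6 libraries gave 2 or 3 called members.

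On galactose 49 members were lower in LCY002 than in BY4741 and none was higher (median -0.19; 19.8% of all genes higher, 18% lower). At an unadjusted p under 0.05 edgeR gave 0 higher and 52 lower, and DESeq2 called 0 and 50 after adjustment. Of the large subunit 29 genes were lower (median -0.20) and of the small subunit 20 (median -0.18). MRPS5 had 62.2, 59.9 and 56.6 CPM in LCY002, below every BY4741 culture, a difference of -0.43 ± 0.06 (SE; edgeR, Benjamini-Hochberg adjusted p = 1.09e-06). MRPL44 had 23.9, 26.1 and 21.8 CPM in LCY002 and 30.2, 35.7 and 29.1 in BY4741, again without overlap. MRPL50 and MRPL22, both with bacterial counterparts in the large subunit, were lower by 0.33 and 0.32. Among the mitoribosomal genes with other names, 10 of 11 were lower (median -0.18), and among the respiratory chain genes 31 of 33 (median -0.45).

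On ethanol and glycerol 34 members were lower in LCY002 than in BY4741 and none was higher (median -0.15; 28.2% of all genes higher, 31.5% lower). At an unadjusted p under 0.05 edgeR gave 0 higher and 36 lower, and DESeq2 called 0 and 32 after adjustment. MRP13 had 123, 123 and 117 CPM in BY4741, above every LCY002 culture given above, and differed by -0.42 ± 0.04 (SE; edgeR, Benjamini-Hochberg adjusted p = 5.6e-09). MRPL32, MRPL11 and RSM26 were lower by 0.39, 0.36 and 0.35. Lower on both galactose and ethanol and glycerol were 30 members (45.5%), against 8.77% of all genes tested. The median of the respiratory chain did not move with them here, at 0.10. In LCY002 12 of its 33 genes were higher, where 28.2% of all genes were.

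**Figure D5:**
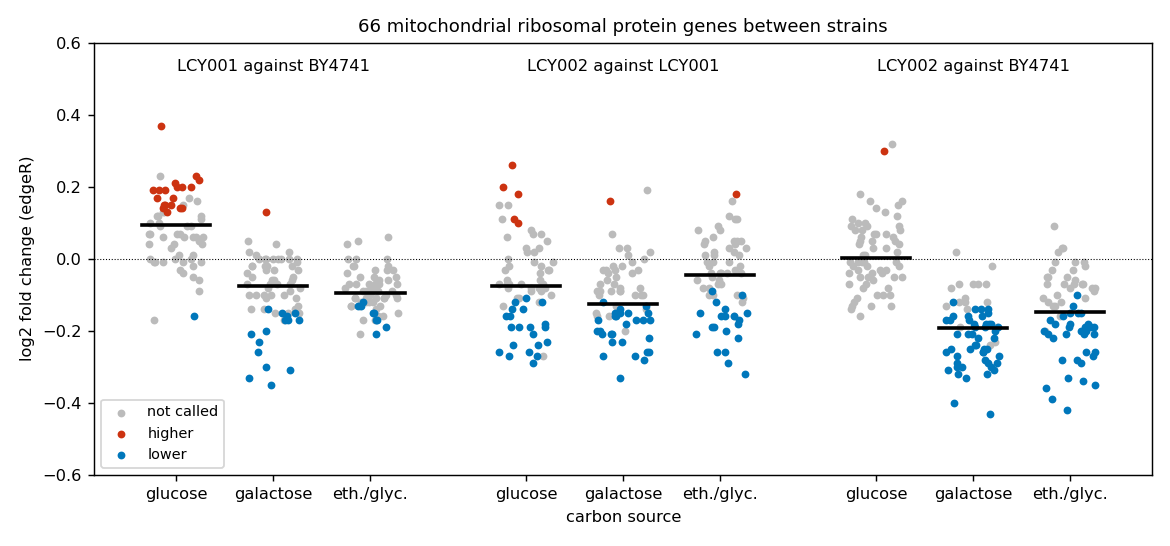
Log2 difference of each member between strains on glucose, galactose and ethanol and glycerol; points are genes, coloured where edgeR called them higher or lower, and the line is the median. The medians of LCY002 against BY4741 are 0.00, -0.19 and -0.15.

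The step from glucose differed between strains when the difference itself was tested. On galactose 25 members rose less in LCY001 than in BY4741 and none rose more (median of the differences -0.18; 26.5% of all genes had a higher and 24.4% a lower value). At an unadjusted p under 0.05 edgeR gave 0 and 33, and DESeq2 called 0 and 21 after adjustment. On ethanol and glycerol 29 members had a smaller step in LCY001 and none a larger one (median -0.18; 22.7% and 23.3% of all genes). At an unadjusted p under 0.05 edgeR gave 0 and 33, and DESeq2 called 0 and 19. MRPL25 showed the widest gap: its change on galactose was 0.59 ± 0.09 in BY4741 and -0.11 in LCY001, where it did not pass the test, and the difference was -0.70 ± 0.12 (SE; edgeR, Benjamini-Hochberg adjusted p = 2.35e-05). The count on ethanol and glycerol was 19 without the second BY4741 culture on that medium, 17 without the first BY4741 glucose culture and 16 without the first LCY001 glucose culture.

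Between LCY002 and LCY001 the members went both ways, with smaller shares called than among all genes. The shares of members with a larger and a smaller step were 10.6% and 18.2% on galactose. On ethanol and glycerol they were 19.7% and 13.6%. On galactose 7 had a larger and 12 a smaller step in LCY002 (median -0.06; 23.5% and 23.8% of all genes), against 3 and 14 with total counts and 4 and 13 with DESeq2. On ethanol and glycerol 13 had a larger and 9 a smaller step (median 0.04; 28.3% and 32.2% of all genes), against 18 and 5 with total counts and 8 and 9 with DESeq2. RSM22 rose from 65.1, 62.7 and 66.1 CPM on glucose to 82.9, 82.4 and 75.3 on galactose and 88.8, 87.1 and 91.3 on ethanol and glycerol in LCY002. In LCY001 it rose from 58.0, 55.5 and 54.8 to 91.5, 93.2 and 84.1 and to 103, 97.3 and 110. LCY002 thus began higher and ended lower, without overlap on any carbon source. The differences of its steps were -0.36 ± 0.09 and -0.42 ± 0.09 (SE; edgeR, Benjamini-Hochberg adjusted p = 0.00104 and 0.000119). Without the first LCY002 glucose culture 12 members were called on galactose.

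Levels per length were set side by side in TPM, which scales counts by length and depth. The highest mean over the 9 groups was that of MRPL39 at 331 TPM (227 to 441 over groups), followed by MRPS18, a small-subunit gene with a bacterial counterpart, at 241, MRPL51 at 216 and MRPS12 at 190. MRPL51 is among the genes that overlap another annotated gene. The lowest was RSM22 at 47.5 TPM (26.9 to 69.9), then MRP35 at 57.0, RSM26 at 58.4 and MRPL49 at 67.3. The order depends on the measure: in the authors' FPKM, 3 of these 4 highest and 2 of these 4 lowest were again among the 4 highest and the 4 lowest. The median TPM of the members lay between 71.6 and 136 in the 9 groups and that of all genes between 45.5 and 59.5. The median of the large subunit was 0.86 times that of the small subunit (SD 0.0257 over the 27 libraries), and 0.952 times in the authors' FPKM.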

How the data were processed

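The authors deposited, for each library, expected counts and FPKM per gene; HISAT2 2.1.0, Bowtie2 2.2.5, RSEM 1.2.8 and build R64 are named in the submitters' processing notes, and the labels and headers do not say whether reads were counted by strand. Deposited expected counts were rounded to whole numbers. The FPKM deposited by the authors served only as an alternative for levels per length. CPM and TPM were computed from the expected counts. For TPM the deposited gene lengths in bases were used, not the effective lengths. Gene IDs were matched to the R64 annotation (5980 of 5995).

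Genes were filtered with edgeR's filterByExpr, scaled by TMM and fitted with edgeR 4.0.16 (R 4.3.3) as quasi-likelihood models over all 27 libraries with 1 coefficient per group; p-values were Benjamini-Hochberg adjusted over 5692 genes, with calls at 0.05. Alternatives were other scalings, no filter, DESeq2 1.42.0, a replicate block, only the libraries compared, and leaving out each library. The fits were tested on simulated data. Intervals and errors cover the spread between colonies. Genes named in a comparison were taken from the 4 called members with the largest and the 4 with the smallest change and any called against the majority (for differences of steps, 3 and 3). The members and gene lists were chosen with earlier results of these data known.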

Additional observations from a re-analysis of the deposited data

Results flagged for a closer look

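The step from glucose to another carbon source differed between strains for some members, by a test of the difference itself (edgeR's quasi-likelihood test, Benjamini-Hochberg adjusted over all genes). Values are differences of log2 changes with SE.

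Between LCY001 and BY4741 the step to galactose differed for 25 members, all lower. This was 37.9% of the members, against 24.4% of all genes called lower and 26.5% called higher. The most negative values were those of MRPL25 at -0.70 ± 0.12 (edgeR adjusted p = 2.35e-05), MRPS5 at -0.49 ± 0.08 (edgeR adjusted p = 2.18e-05) and MRPS8 at -0.43 ± 0.09 (edgeR adjusted p = 0.000213), and none of these calls was lost under any alternative run. The values closest to 0 among the called members were -0.19 for MRPS28, -0.19 for MRPS35 and -0.20 for MRPL17, and each of these calls was lost under several alternatives. The step to ethanol and glycerol differed for 29 members, all lower. This was 43.9% of the members, against 23.3% of all genes called lower and 22.7% called higher. MRP35, a large-subunit gene, had -0.44 ± 0.17 (edgeR adjusted p = 0.0346), a call that was lost without single libraries. MRPL25 had -0.43 ± 0.12 and MRP49, a mitochondria-specific large-subunit gene, -0.40 ± 0.08, and neither call was lost. The smallest called values, -0.16 for MRPS18, -0.17 for MRP20 and -0.17 for MRPL10, were lost under several alternatives.

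Between LCY002 and LCY001 the step to galactose differed for 19 members. Larger and smaller steps were called for 10.6% and 18.2% of the members, below the 23.5% and 23.8% of all genes. MRPL25 had 0.46 ± 0.12 (edgeR adjusted p = 0.00255), opposite in sign to its value between LCY001 and BY4741; both values use the LCY001 cultures. MRPL28 and MRPS8 had 0.28 and 0.28, and these calls were lost without the first LCY001 galactose culture (0.22) and without the first LCY001 glucose culture (0.19), respectively. RSM22 had -0.36 ± 0.09, MRPL20 -0.34 ± 0.08 and MRP4 -0.34, the last uncertain because the gene overlaps another. The step to ethanol and glycerol differed for 22 members. Larger and smaller steps were called for 19.7% and 13.6% of the members, below the 28.3% and 32.2% of all genes. MRPL31 had 0.33, a call lost without the third LCY001 culture on that medium (0.24), MRPL28 0.30 and MRPL6 0.26. MRPL20 had -0.32, MRP13 -0.40 ± 0.06 (edgeR adjusted p = 4.75e-06) and RSM22 -0.42 ± 0.09 (edgeR adjusted p = 0.000119).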

How the results depend on the processing

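Within BY4741 all 66 members were called higher against glucose under every alternative run. Between strains the counts depended more on the processing, and the cause was not tested. Leaving out 1 library at a time gave 10 to 23 called members for LCY001 against BY4741 on glucose, 9 to 19 on galactose and 1 to 14 on ethanol and glycerol. It gave 15 to 26 for LCY002 against LCY001 on glucose and 13 to 22 on ethanol and glycerol, and 2 to 3 for LCY002 against BY4741 on glucose (3 without the first BY4741 culture, with 1 higher and 2 lower). For the differences of steps it gave 16 to 34 (LCY001 against BY4741, ethanol and glycerol) and 12 to 19 (LCY002 against LCY001, galactose).

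With total counts as the scale, which moved the median change of all genes by up to 0.23 (log2), 7 members were called for LCY001 against BY4741 on galactose, 40 and 55 for LCY002 against LCY001 on glucose and galactose, 8 for LCY002 against BY4741 on glucose, and 44 for the difference of steps of LCY001 and BY4741 on ethanol and glycerol; MRPL3 in LCY002 against LCY001 on glucose went from 0.10 to -0.002. With DESeq2's size factors in edgeR, 3 were called for LCY002 against BY4741 on glucose. DESeq2 called 13 for LCY001 against BY4741 and 2 for LCY002 against BY4741 on glucose, and 19 and 17 for the steps to ethanol and glycerol of LCY001 against BY4741 and of LCY002 against LCY001. With only the compared libraries in the fit, 9 and 0 members were called for LCY001 against BY4741 on galactose and on ethanol and glycerol (0 higher and 17 lower at an unadjusted p under 0.05), and 6 for LCY002 against BY4741 on glucose.

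As shares of total counts the summed levels on glucose, galactose and ethanol and glycerol were 3356, 5162 and 5995 CPM in BY4741, and 3269, 4215 and 5171 in LCY002; in LCY001 they were 5066 on galactose and 5561 on ethanol and glycerol. The order of carbon sources stayed as reported. The ratio of subunit medians was 0.952 in the deposited FPKM, and 90.9% of members held the Puf3 element within 100 bases.

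Samples with the same replicate number did not deviate together (correlations of -0.20 to 0.25), so the numbers were not taken as pairs. With a replicate block, all 22 counts of called members stayed within 1.5 times the reported ones, for example 66 on galactose in BY4741 and 61 in place of 62 on ethanol and glycerol in LCY002.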

Other observations

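MRPS12 and RSM19, both small-subunit genes with bacterial counterparts, are neighbours on chromosome XIV, in tandem and 229 bases apart. In BY4741 the change on ethanol and glycerol was 0.78 ± 0.05 for MRPS12 and 0.78 ± 0.08 for RSM19 (SE), and on galactose 0.51 ± 0.05 and 0.54 ± 0.08. In LCY002 the changes on ethanol and glycerol were 0.71 ± 0.05 and 0.57 ± 0.08.

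MRP2, a small-subunit gene with a bacterial counterpart, varied between cultures of a group. On glucose it stood at 18.7, 19.4 and 17.4 CPM in BY4741, 23.4, 22.9 and 15.8 in LCY001 and 22.4, 22.1 and 24.5 in LCY002. Its rise on galactose in BY4741 was 0.62 ± 0.15 (SE).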
